A study of Homo sapiens with 2 samples.

Results

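The genes described are 47 DNA repair genes taken from a fixed list of names: Fanconi anaemia genes, BRCA and recombination genes, end joining and single-strand break repair genes, checkpoint kinases, and mismatch and nucleotide excision repair genes. All 47 were found among the 12918 genes of the deposited table, and all 47 reached 1 FPKM (fragments per kilobase, in proportion to the size of the library, summed here over the listed transcripts of a gene) in at least 1 library. Both libraries came from MDA-MB-231, an established cell line of triple-negative human breast cancer, 48 h after transfection. The control cells received si-NC, a negative control, and the others a Smart Silencer, a reagent against the long noncoding RNA THAP7-AS1. No untransfected cells enter the comparison. The silencer column is headed si-v, was assigned by elimination, and is called the si-v library here. THAP7-AS1 itself had 0 of its 3 annotated transcripts listed, so the silencing could not be checked, and each direction given below depends on that assignment. Each group is a single library, so no difference below has a replicate check and no test between the groups was made. In bulk RNA, fewer cells that express a gene and less of its RNA per cell cannot be told apart.

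DNA repair genes guard the genome by separate routes. The Fanconi proteins unhook DNA crosslinks: a core complex adds ubiquitin to the FANCI-FANCD2 pair, and the BRCA proteins and the recombination paralogs then complete repair by homologous recombination with a sister chromatid. End joining seals double-strand breaks without a template, PARP1 and XRCC1 organise the repair of single-strand breaks, mismatch repair corrects copying errors, and nucleotide excision removes bulky lesions. ATM, ATR and their targets CHEK2 and CHEK1 halt the cell cycle while repair goes on. Many Fanconi and recombination genes are transcribed mainly in dividing cells.

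The repair genes were close in level between the libraries. Of the 47 genes, 42 lay within 1.5-fold of each other and 33 (70.2%) within 25%, where 55% of all genes were, on the scale log2((si-v FPKM + 1)/(control FPKM + 1)). At 1.5-fold or more, 1 gene was higher in the si-v library, where 9.82% of all 11046 genes that reached 1 FPKM were higher, and 4 genes were lower, where 8.91% of all genes were lower. In either direction this was 5 of 47 genes against 18.7% of all genes. Of all genes that reached 5 FPKM, 9.93% were higher, 8.67% lower and 18.6% either, so a share of this size is near or under the background and says nothing particular about the repair genes. At 2-fold, 1 repair gene was higher and 2 were lower, where 2.37% of all genes were higher, 2.49% lower and 4.86% either. The higher gene was RAD51B, and the lower genes were ERCC3, LIG1, FANCM and BARD1. FANCE (log2 0.58) and BRCA1 (0.55) lay just short of the threshold and past it with a pseudocount of 0.1 FPKM, and BARD1 (-0.61) and FANCM (-0.66) just past it. The median log2 ratio of the 47 genes was -0.03, and that of all genes was 0.00. The genes had a median level of 9.90 FPKM in the control against 9.58 in the si-v library, close to the 9.44 and 9.29 of all genes, with a lower median GC content (44.2% against 48.8%).

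**Figure D1:**
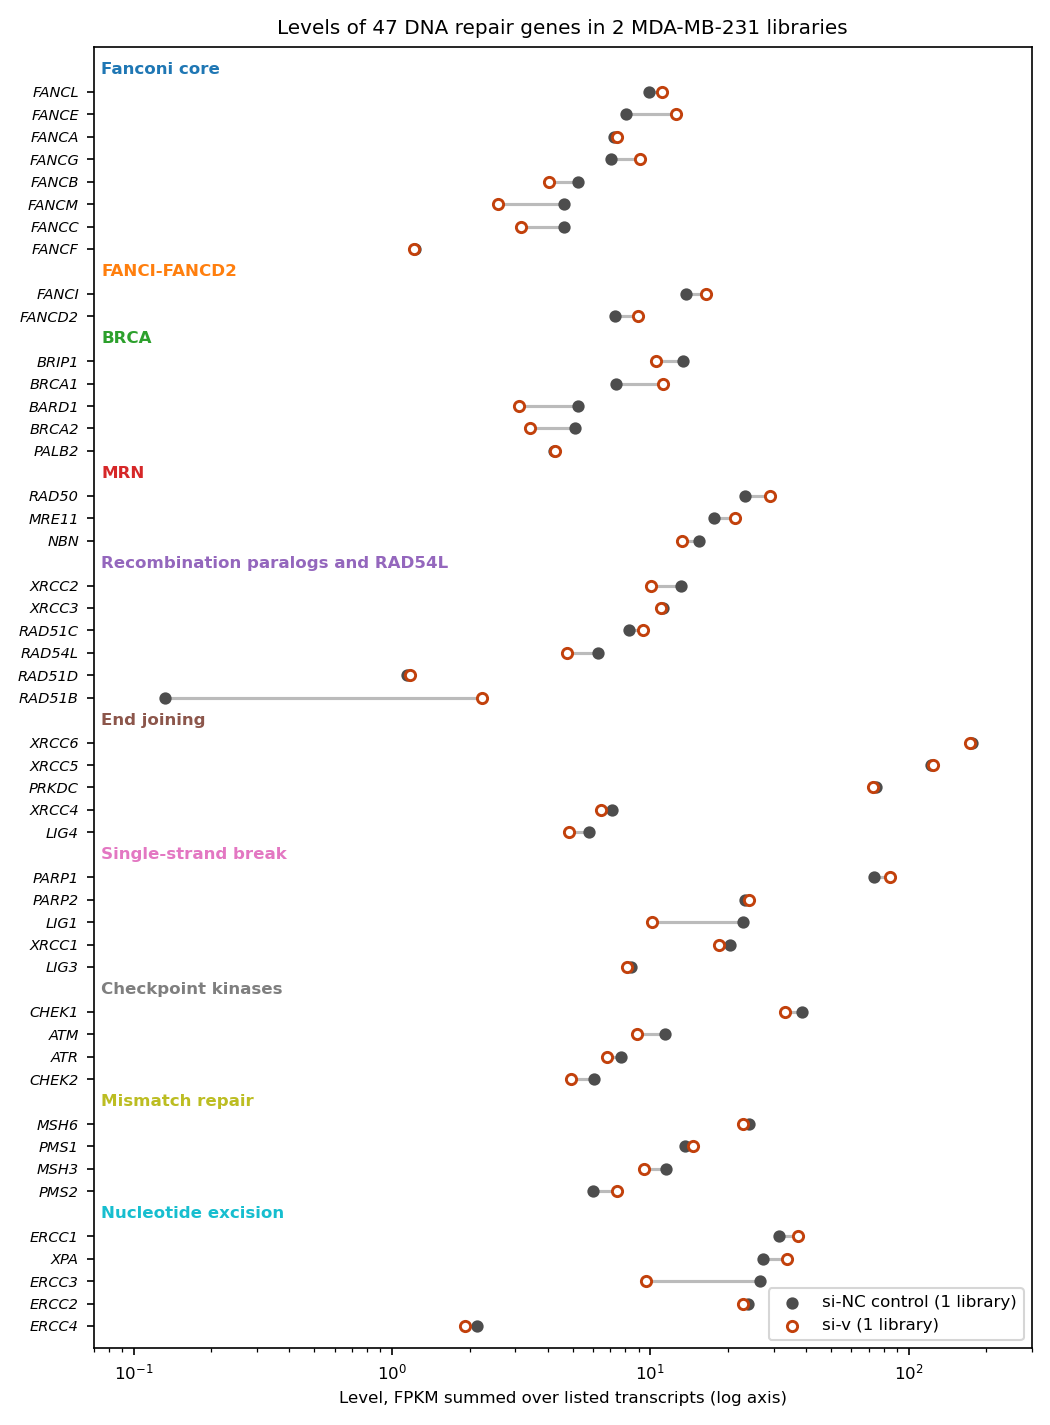
Level of each of the 47 repair genes in FPKM summed over its listed transcripts (log axis), grouped by pathway; filled points are the control library and open points the si-v library, 1 library each. XRCC6 and XRCC5 are at the top in both libraries, and the widest gaps are those of RAD51B, ERCC3 and LIG1.

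ERCC3 had the largest difference downward. It encodes XPB, the DNA helicase of the transcription factor TFIIH that opens DNA around a lesion and at promoters. ERCC3 stood at 26.5 FPKM in the control against 9.58 in the si-v library (log2 -1.38). Both of its listed transcripts were lower: the full-length ERCC3-201 was at 15.1 and 4.03 FPKM, and ERCC3-204, a model of 563 bases, at 11.4 and 5.56. In approximate sequenced fragments, read from the size of the lowest values in the table, the gene had about 525 in the control against 169 in the si-v library, a log2 ratio of -1.76 with a 95% counting interval of -2.01 to -1.50. These intervals are exact Clopper-Pearson intervals, cover counting error only, and leave out how reads were divided among transcripts and how cultures vary. Over all genes they lay above equality for 29.4% and below it for 30.7%, so an interval that excludes equality sets a gene little apart here. Among the 47 repair genes they lay above equality for 12 and below it for 13. ERCC3 was lower by 1.5-fold or more in each of the other settings tried for gene values, from -1.11 with a pseudocount of 5 FPKM to -1.68 from its most abundant transcript.

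LIG1, the replicative DNA ligase that joins Okazaki fragments and completes long-patch base excision repair, stood at 22.8 FPKM in the control against 10.2 in the si-v library (log2 -1.09). About 732 and 415 fragments lie behind these values (-0.94, interval -1.12 to -0.76). The difference was unequal over its 4 listed transcripts. LIG1-201 was at 8.89 FPKM in the control against 2.14 in the si-v library, and the short LIG1-205 at 5.01 and 0.757. LIG1-221 was at 7.55 and 5.50, and LIG1-202 lay the other way at 1.34 and 1.79. Read from LIG1-221, the transcript with the highest mean of both libraries, the gene had a log2 ratio of -0.40 and was inside the threshold.

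The sequences before the starts of ERCC3 and LIG1 are printed because these were the 2 repair genes at 2-fold or more lower, the background for which is given above. They are the 250 bases upstream of the first start that RefSeq lists on build GRCh38.p14, ERCC3 at chr2:127294145-127294394 and LIG1 at chr19:48170345-48170594, both on the minus strand and written 5′ to 3′. Capitals mark letters of an E2F motif (TTCCCGC, the variant TTGGCGC, and the variant TTCGCGC) or of a GC box (GGGCGG), on either strand; the E2F match and a GC box of LIG1 overlap.
ERCC3: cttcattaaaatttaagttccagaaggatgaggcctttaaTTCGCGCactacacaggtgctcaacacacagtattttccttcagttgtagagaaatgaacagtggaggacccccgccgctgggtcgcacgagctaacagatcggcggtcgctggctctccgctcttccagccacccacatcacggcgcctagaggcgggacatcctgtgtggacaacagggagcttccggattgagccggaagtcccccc
LIG1: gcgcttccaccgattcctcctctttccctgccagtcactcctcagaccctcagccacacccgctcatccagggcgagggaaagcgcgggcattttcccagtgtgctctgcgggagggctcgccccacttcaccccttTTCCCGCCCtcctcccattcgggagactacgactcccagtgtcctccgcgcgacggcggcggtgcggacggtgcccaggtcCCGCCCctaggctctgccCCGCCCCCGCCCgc
The ERCC3 window held 1 E2F match and 0 GC boxes, and the LIG1 window 1 E2F match and 4 GC boxes. An E2F match was present in 12 of the 43 repair genes that had a promoter in the table (27.9%), in 15.9% of the promoters of expressed genes and in 9.51% of all promoters. GC boxes were in 69.8% of the repair gene promoters and 69.4% of those of expressed genes. A CCAAT box (CCAAT) was in 39.5% and 35.7%, and a cell cycle homology region (TTTGAA, and the variant TTCGAA) in 9.30% and 9.31%. A match describes the letters and shows no binding.

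The Fanconi core complex genes had no common direction, with 4 of 8 above 0, 4 below, and a median log2 ratio of 0.02. FANCE, the core subunit that contacts FANCD2, stood at 8.08 FPKM in the control against 12.6 in the si-v library (0.58). It has a single listed and a single annotated coding transcript, and its fragments were about 226 and 383 (0.64, interval 0.40 to 0.88), which put it past 1.5-fold when fragments were used in place of FPKM. FANCG, a scaffold of the core, was at 7.02 and 9.11 (0.33), and FANCL, the ubiquitin ligase of the complex and its most abundant member in the control, at 9.90 and 11.1 (0.15). FANCA was at 7.20 and 7.43 and FANCF at 1.22 and 1.21, the latter on about 40 and 43 fragments.

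Lower in the si-v library were FANCB, at 5.23 and 4.06 FPKM (-0.30), and FANCC, at 4.64 and 3.15 (-0.44). FANCM, the DNA translocase that recruits the core complex to stalled forks, had the lowest ratio of the group at 4.65 and 2.58 (-0.66), but its fragments were level, about 202 in the control against 205 in the si-v library (-0.10, interval -0.39 to 0.19). In the control the FPKM was spread over short models, which gain more FPKM per fragment. The full-length FANCM-201 of 7111 bases was at 1.28 FPKM in the control against 2.29 in the si-v library. FANCM-205 of 3112 bases lay the other way, at 1.83 and 0.287, as did FANCM-208 of 2354 bases, at 1.54 and 0.00493. Read from FANCM-201, its most abundant transcript, the gene had a log2 ratio of 0.53, so that the sign turned. With the trend of the ratio on GC content and length removed it was no longer at 1.5-fold.

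The substrates of the core, FANCD2 and FANCI, were both slightly higher in summed FPKM. FANCD2, the protein that receives the ubiquitin mark, stood at 7.32 FPKM in the control against 8.97 in the si-v library (0.26). Its partner FANCI was at 13.7 and 16.4 (0.24). On fragments FANCD2 was at 0.30 (interval 0.11 to 0.49) and FANCI at 0.10 (interval -0.11 to 0.31). Read from its most abundant transcript, FANCI was at -0.03, with the sign turned. Of the FANCD2 models FANCD2-201 was higher, at 3.56 and 6.04, while FANCD2-202 and FANCD2-203 were lower. The FANCI value was spread over many of its 9 listed transcripts in both libraries. FANCI-204 was listed at 0 in the control and stood at 3.44 FPKM in the si-v library, while the longest model, FANCI-202, lay the other way at 2.99 and 1.88. FANCD2 has near-identical pseudogene copies, as do PMS2, CHEK2, BRCA1 and XRCC6, and reads shared with such copies make these 5 values less certain.

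In the BRCA group BRCA1 and its partner lay on opposite sides of 0. BRCA1, the tumour suppressor that promotes end resection and recruits PALB2, stood at 7.36 FPKM in the control against 11.2 in the si-v library (0.55). BARD1, which forms the BRCA1-BARD1 ubiquitin ligase with it, stood at 5.26 and 3.11 (-0.61), on about 317 and 204 fragments (-0.76, interval -1.02 to -0.50). BRCA2, which loads the recombinase onto DNA, was at 5.12 and 3.42 (-0.47), and the helicase gene BRIP1, whose protein binds BRCA1, at 13.4 and 10.5 (-0.32). PALB2, the bridge between BRCA1 and BRCA2, was level at 4.22 and 4.28.

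The BRCA1 value rested on many partial models, with 10 of 26 annotated coding transcripts listed. BRCA1-208 was listed at 0 in the control and stood at 3.14 FPKM in the si-v library, and BRCA1-214 was listed at 0 and stood at 2.32. The longest listed model, BRCA1-203, lay the other way at 1.26 and 0.434, and so did BRCA1-201 at 1.99 and 1.27, so that the log2 ratio was -0.40 from the most abundant transcript. On fragments the gene was at 0.37 (interval 0.13 to 0.62). The BRCA group had a median log2 ratio of -0.32 and a median GC content of 38.2%. MRE11, RAD50 and NBN had a median GC content of 39.2% and a median log2 ratio of 0.26. With the trend of the ratio on GC content and transcript length removed, the median of the BRCA group was -0.09. BARD1 was then at -0.37, inside the threshold, and BRCA2 at -0.12. Whether GC content or length bears on these ratios was not tested.

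MRE11 and RAD50, the nuclease and the clamp of the complex that first binds broken ends, were a little higher in the si-v library, and the third subunit a little lower. RAD50 stood at 23.3 FPKM in the control against 29.1 in the si-v library (0.31), MRE11 at 17.6 and 21.2 (0.26), and NBN at 15.5 and 13.2 (-0.21). The RAD50 value rested on about 2101 and 2827 fragments, almost all of them on RAD50-201 (23.1 and 28.5 FPKM). For MRE11 the full-length MRE11-201 was level at 9.78 and 9.45, and the difference in the sum lay in MRE11-202, at 2.88 and 8.51.

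RAD51B had the largest difference upward of the 47 genes and the fewest fragments. It is one of the recombination paralogs, which help build the recombination filament. It stood at 0.132 FPKM in the control against 2.23 in the si-v library (1.51), on about 2 and 20 fragments, a fragment log2 ratio of 3.20 with an interval of 1.16 to 6.34. In the si-v library 61.5% of its FPKM was on RAD51B-220, a model of 292 bases that was listed at 0 in the control, and the rest on RAD51B-205 at 0.132 and 0.859. On fragments per gene it did not reach the expression filter. The other paralogs lay within 1.5-fold. RAD51C was at 8.30 and 9.35 FPKM (0.15), RAD51D at 1.14 and 1.18 (0.02), XRCC3 at 11.2 in the control with a ratio of -0.02, and XRCC2, the most abundant, at 13.1 and 10.1 (-0.35). RAD54L, the motor that remodels the filament, was at 6.25 and 4.78 (-0.33), or -0.18 on fragments.

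The end joining genes that bind broken ends were abundant and level. XRCC6 and XRCC5, which encode Ku70 and Ku80, the ring that slides onto a broken end, stood at 177 and 173 FPKM and at 122 and 124 (log2 -0.03 and 0.02). XRCC6 was above 98.2% of all genes in level and XRCC5 above 96.8%. PRKDC, the kinase that Ku recruits, was at 74.4 and 72.7 (-0.03) on about 10456 and 11054 fragments. The genes of the ligation step were far lower in level: XRCC4 at 7.08 and 6.44 (-0.12) and LIG4 at 5.78 and 4.85 (-0.21). For Ku70, Ku80 and PRKDC the counting intervals reached no further than 0.10 from equality in either direction.

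PARP1, the sensor of strand breaks and, with 73.1 FPKM in the control against 84.5 in the si-v library (0.21), the most abundant gene of single-strand break repair, was slightly higher. PARP2 was at 23.2 and 24.1 (0.05), and LIG3, the ligase that works with XRCC1, at 8.45 and 8.14 (-0.05). XRCC1, the scaffold of the pathway, was at 20.4 and 18.4 FPKM (-0.14), but about 458 and 598 fragments gave it a log2 ratio of 0.26 (interval 0.09 to 0.44), with the opposite sign.

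All 4 checkpoint kinase genes were below 0, where 50.4% of all genes were above 0. Their median was -0.23, and none of the 4 reached 1.5-fold. CHEK1, the kinase below ATR and the most abundant of them, stood at 38.7 FPKM in the control against 33.2 in the si-v library (-0.21). ATR was at 7.73 and 6.82 (-0.16), and CHEK2, the kinase below ATM, at 6.04 and 4.93 (-0.25). ATM, the kinase that answers double-strand breaks, was at 11.4 and 8.89 (-0.33), and here the 2 readings again had opposite signs, with about 907 fragments in the control against 1123 in the si-v library (0.19, interval 0.06 to 0.32). Read from the most abundant transcript of each gene, the median of the 4 kinases was 0.58, with the sign turned. In all, 5 of the 47 genes had a fragment ratio of the opposite sign: FANCA, PALB2, XRCC1, ATM and MSH6.

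**Figure D2:**
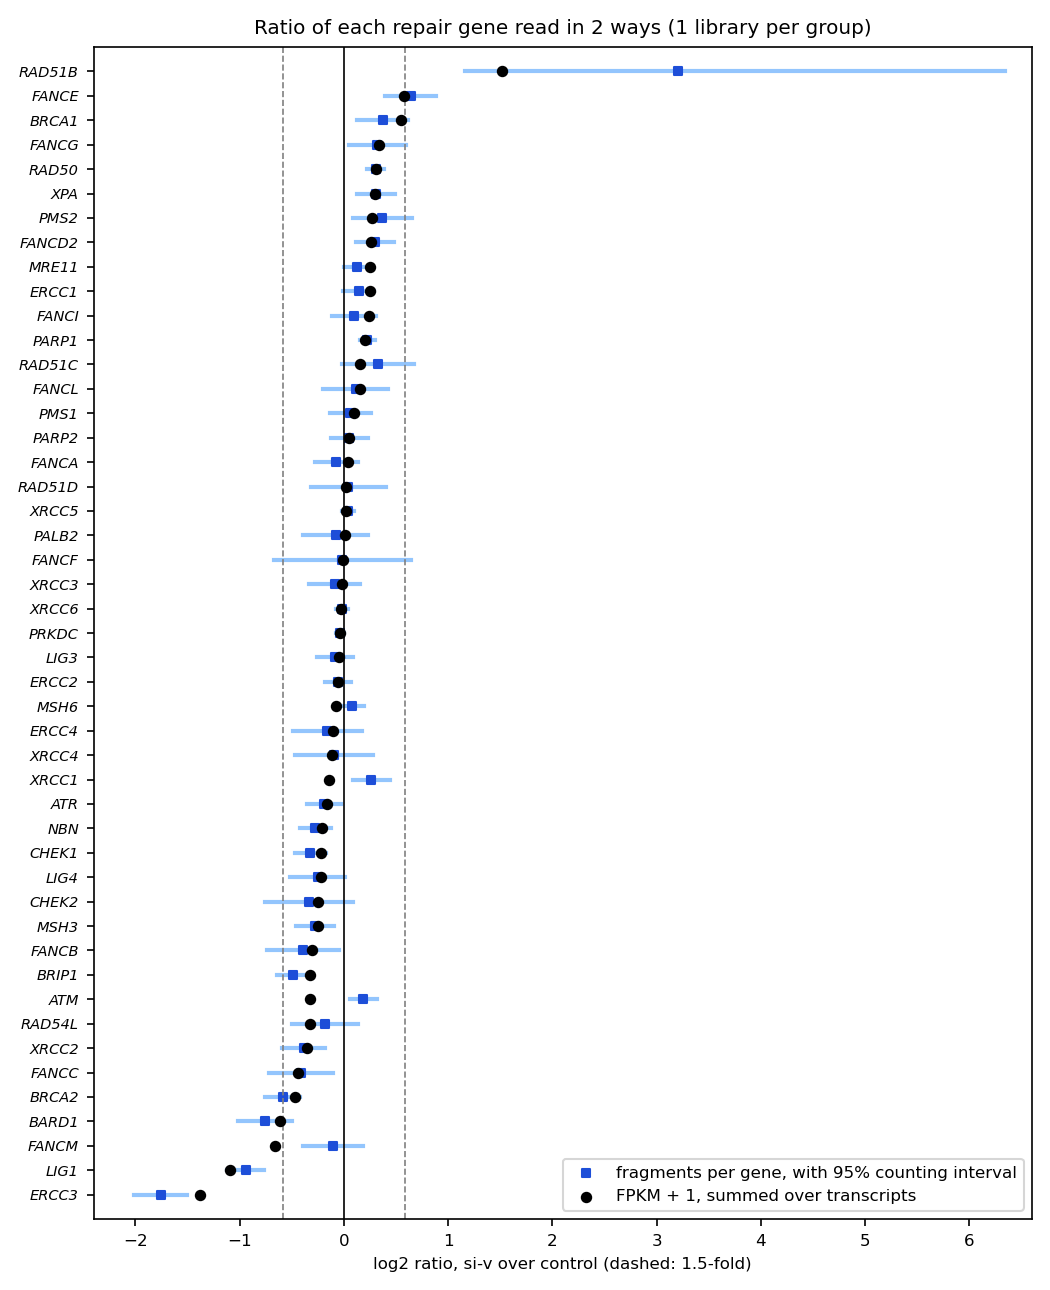
The log2 ratio of si-v over control for each of the 47 genes, read from FPKM plus 1 summed over transcripts (black points) and from approximate fragments per gene with their 95% counting intervals (blue), 1 library per group; dashed lines mark 1.5-fold. ERCC3, LIG1 and BARD1 lie past 1.5-fold lower in both readings, and FANCM in the black points alone.

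Mismatch repair genes were level as a group, with a median of 0.01. MSH6, which recognises single mismatches, was the most abundant at 24.2 FPKM in the control against 22.9 in the si-v library (-0.08), and MSH3, which recognises larger loops, was at 11.4 and 9.46 (-0.25). PMS1 was at 13.6 and 14.6 (0.10), and PMS2, an endonuclease subunit, at 6.0 and 7.45 (0.27). Nucleotide excision genes other than ERCC3 were within 1.5-fold. ERCC1, a subunit of the nuclease that cuts on one side of the lesion, was the most abundant at 31.4 and 37.4 (0.25). Read from its most abundant transcript ERCC1 was at -0.32, with the sign turned. Its partner ERCC4 was at 2.14 and 1.92 (-0.11). XPA, the damage verification factor, was at 27.2 and 33.8 (0.30), and ERCC2, the second helicase of TFIIH, at 23.8 and 22.9 (-0.06), unlike ERCC3.

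The most abundant transcript of a gene was often not the same in both libraries. Of the 38 repair genes with at least 2 listed transcripts, 15 had another most abundant transcript in the si-v library than in the control, against 26.4% of all such genes and 23.3% of those that reached 5 FPKM. Ordered by fragments in place of FPKM, it was 14 repair genes and 22.1% of all genes. For 9 of them both transcripts' shares moved by at least 20 percentage points, against 17% of all genes. The share of a gene's FPKM that lay on other transcripts than in the control had a median of 20.3% over the 38 genes and 14.3% over all genes. Over all genes, the share of genes with another most abundant transcript was higher where more transcripts were listed. It was 16.3% with 2, 28.3% with 3 to 5 and 37.5% with 6 or more. Among the repair genes it was 3 of 9, 5 of 17 and 7 of 12.

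XRCC1 and PMS2 gave the plainest cases. XRCC1-202 stood at 17.6 FPKM in the control and was listed at 0 in the si-v library, while XRCC1-201 stood at 2.30 and 17.8. PMS2-206 was at 5.60 and listed at 0, while PMS2-201 was at 0.394 and 7.45. XRCC4-203 was at 4.42 and listed at 0, while XRCC4-205 was at 2.58 and 4.17 and XRCC4-202 at 0.0749 and 2.27. In PARP2 the leading PARP2-202 stayed in front at 12.6 and 15.3, and PARP2-201 was at 7.69 and 2.69. In each of these genes a model with a high value in the control had a low one or was listed at 0 in the si-v library, and another model of the gene was higher. Of the 31-base windows of XRCC1-202, 98.5% were also in XRCC1-201; the figure was 98.9% for PMS2-206 in PMS2-201 and 95.1% for XRCC4-203 in XRCC4-205. In the opposite direction it was 69.7% for the longer XRCC1-201, 94.5% for PMS2-201 and 88.9% for XRCC4-205.

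The coding bases by which these models differ are printed because reads that cross them, or the transcript ends, tell the models apart. They come from the GENCODE release 29 transcripts, with positions on build GRCh38: chr19:43574910-43575002 on the minus strand for XRCC1, chr7:6003690-6003792 on the minus strand for PMS2, chr5:83353125-83353130 on the plus strand for XRCC4, and chr14:20345088-20345126 on the plus strand for PARP2. Capitals mark the bases present in the first model named and absent from the second, with 15 coding bases on each side in lower case.
XRCC1-201, not XRCC1-202: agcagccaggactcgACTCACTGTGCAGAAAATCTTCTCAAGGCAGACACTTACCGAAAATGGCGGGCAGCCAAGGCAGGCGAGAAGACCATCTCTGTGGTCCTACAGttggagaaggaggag
PMS2-201, not PMS2-206: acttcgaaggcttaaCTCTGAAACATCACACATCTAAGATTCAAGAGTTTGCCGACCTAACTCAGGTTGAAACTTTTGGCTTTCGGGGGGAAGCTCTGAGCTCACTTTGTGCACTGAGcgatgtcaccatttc
XRCC4-205, not XRCC4-203: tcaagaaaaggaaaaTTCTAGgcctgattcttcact
PARP2-201, not PARP2-202: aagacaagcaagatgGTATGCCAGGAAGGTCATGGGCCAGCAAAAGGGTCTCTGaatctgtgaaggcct
The XRCC1 stretch has 93 bases and XRCC1-201 has 17 exons to the 16 of XRCC1-202. The PMS2 stretch has 103 bases, not a whole number of codons, and PMS2-206 is annotated with 2268 coding bases against 2586 in PMS2-201. The XRCC4 stretch has 6 bases and the PARP2 stretch 39, both whole codons. The models also differ at their ends, so these stretches are not the only letters that tell them apart. Which reads decided the split was not tested.

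The checkpoint and end joining genes gave further cases. ATM-212, a model of 4841 bases, stood at 3.75 FPKM in the control against 0.00426 in the si-v library. ATM-203 of 12954 bases stood at 1.49 and 5.34. ATM-201 of 13147 bases, with the same 9168 coding bases as ATM-203, lay the other way at 2.58 and 1.49. CHEK2-202 was at 2.19 and 0.0233 and CHEK2-206, whose 31-base windows are all (100%) in CHEK2-202, at 1.14 and 3.51. LIG4-201 was at 2.96 and 1.03 and LIG4-202, with the same 2733 coding bases, at 0.994 and 2.96. XRCC3-211 was at 5.18 and 1.84 and XRCC3-201, again with equal coding length (1038 bases), at 0.531 and 2.90. In PRKDC the order held, with PRKDC-202 at 50.3 and 60.2 and PRKDC-201, which has 1 exon more, at 23.0 and 11.7.

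**Figure D3:**
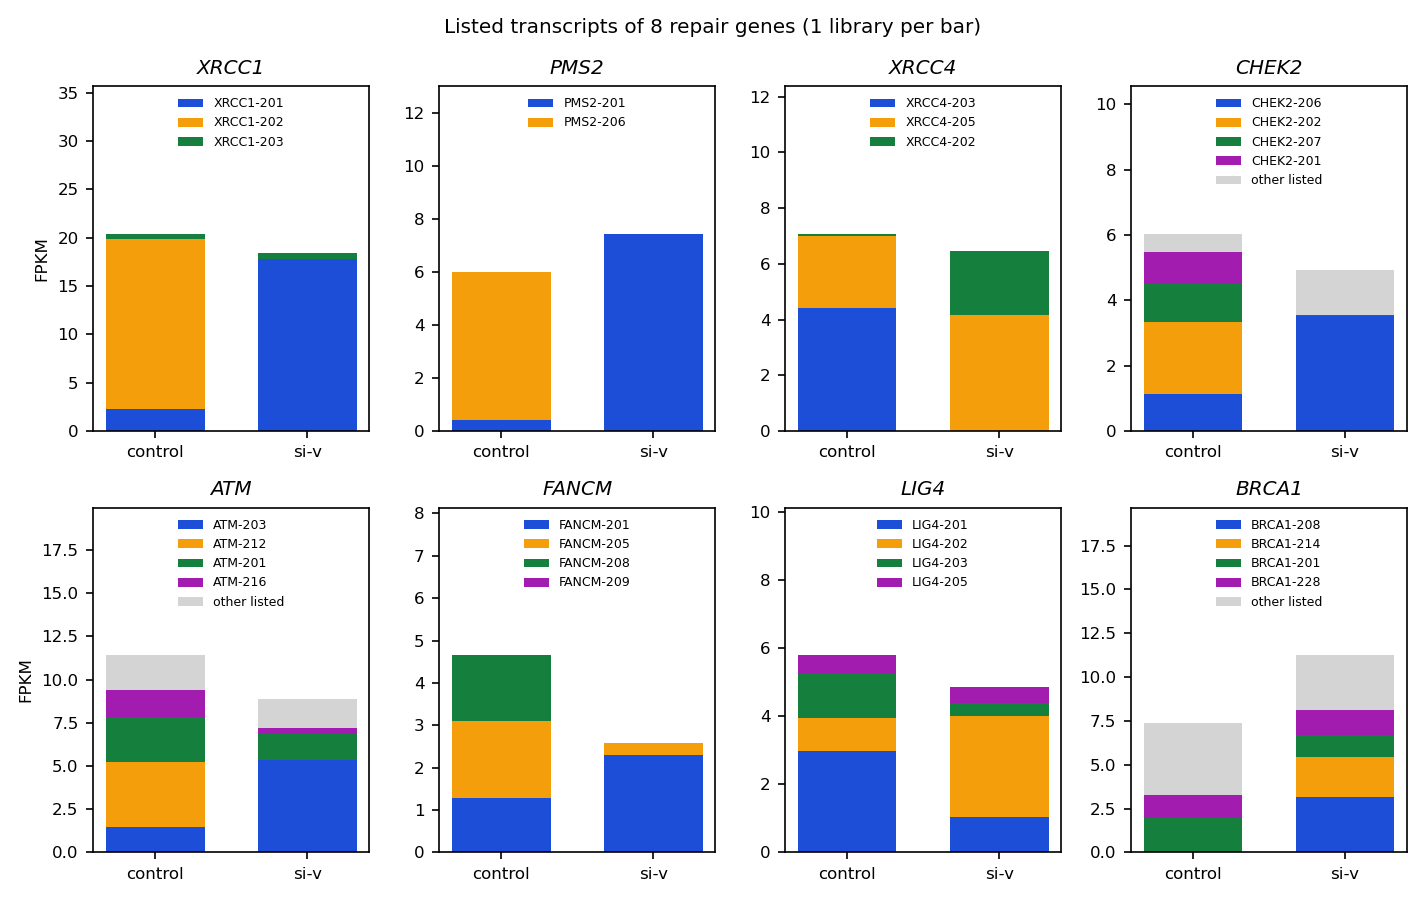
FPKM of the listed transcripts of 8 repair genes, stacked, in the control and the si-v library (1 library per bar); the 4 transcripts with the highest value are coloured and the rest are grey. In XRCC1 and PMS2 the total is near its level while another transcript carries it; in FANCM and ATM the total is lower where a longer transcript carries it.

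Partners of these genes in the same pathways, 105 in 7 lists, were spread about 0 as well. Of the 104 that reached 1 FPKM, 6 were at 1.5-fold or more higher and 8 lower, with a median log2 ratio of 0.03. These counts are under the 9.82% higher and 8.91% lower of all genes, and the counts by list below are read against the same shares. In nucleotide excision 2 of 17 were higher and 0 lower. The higher genes were the nuclease gene ERCC5 at 4.37 FPKM in the control against 10.6 in the si-v library (1.11) and UVSSA, a factor of transcription-coupled repair (0.61), and ERCC8 had the lowest ratio at 3.34 and 2.18 (-0.45). Of the other TFIIH subunits in this list, GTF2H1 was at 24.4 and 34.4 (0.48) and CCNH at 35.1 and 26.8 (-0.38). Neither summed value was near the ERCC3 difference. Read from the most abundant transcript, GTF2H1 was at -0.97, with the sign turned, and CCNH at -0.19. CDK7, a further subunit, was at -0.33 when summed and at -3.45 from its most abundant transcript.

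Among 28 Fanconi and recombination partners 1 was higher and 2 were lower. UBE2T, the ubiquitin-conjugating enzyme that works with FANCL, stood at 56.9 FPKM in the control against 30.3 in the si-v library (-0.89), and the crosslink nuclease gene FAN1 at 3.93 and 6.53 (0.61). Of 18 checkpoint partners 1 was higher, the fork protection gene TIPIN at 7.74 and 19.3 (1.21), and 2 were lower, with the lowest ratio for the mitotic entry inhibitor WEE1 at 14.8 and 7.63 (-0.88). Of 13 base excision partners 1 was higher, the glycosylase gene TDG at 3.55 and 5.96 (0.61), with a fragment interval of -0.014 to 0.77. Lower were 2, with the repair polymerase gene POLB lowest at 10.3 and 4.23 (-1.11). End joining partners had 1 of 10 higher, NHEJ1 at 3.94 and 8.23 (0.90), and 1 lower, APLF at 3.56 and 2.03 (-0.59). Mismatch repair partners had 0 of 10 higher and 1 lower, MLH3 at 3.44 and 1.89 (-0.62), and RFC4 had the highest ratio at 29.5 and 41.2 (0.47). Translesion genes had 0 of 8 past 1.5-fold and 7 of 8 below 0, where 50.4% of all genes were above 0. They ran from REV3L at 4.64 and 2.82 (-0.56) to MAD2L2 at 48.2 and 48.8 (0.02).

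**Figure D4:**
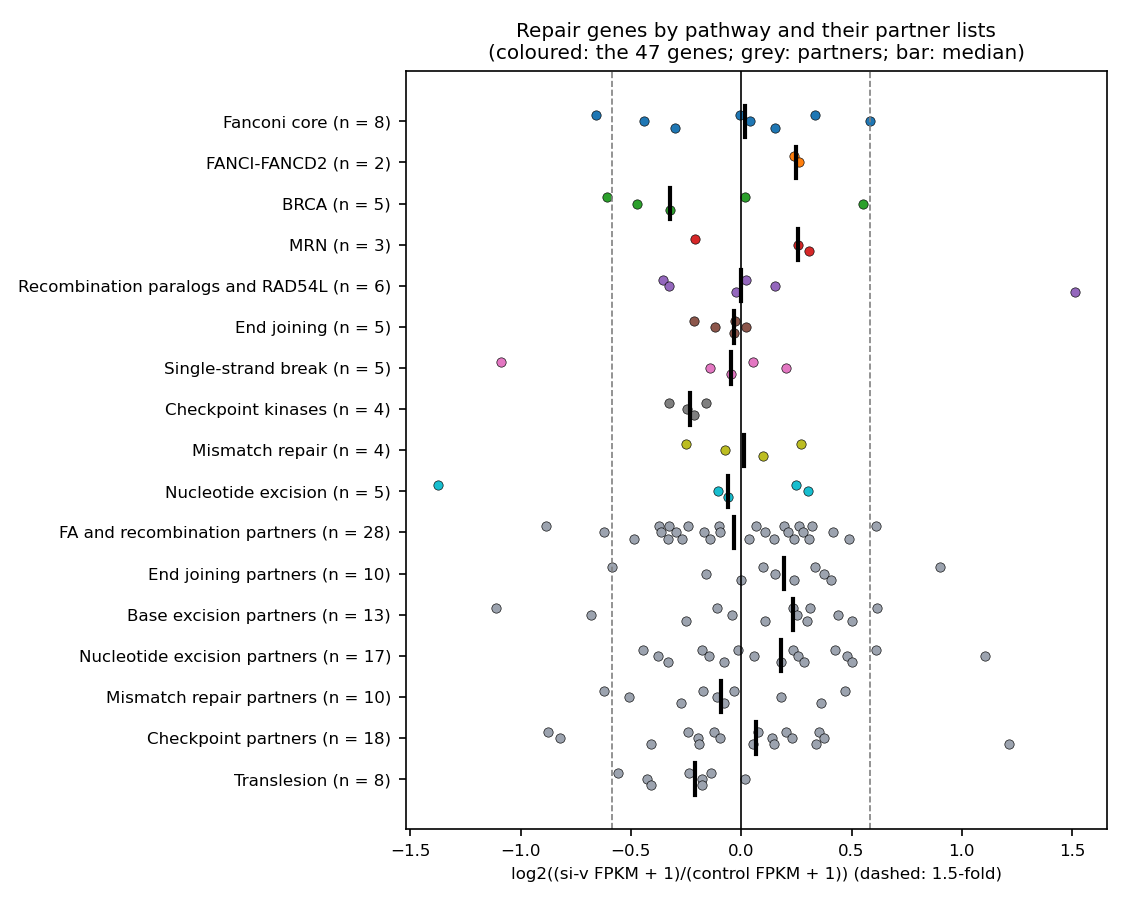
The log2 ratio of FPKM plus 1, si-v over control, for the 47 repair genes by pathway (coloured) and their partner lists (grey), each point 1 gene and each bar the median; dashed lines mark 1.5-fold. The 4 checkpoint kinases sit below 0 on this scale, where 50.4% of all genes lay above 0. Read from their most abundant transcripts, their median was 0.58. Most pathway medians lie near 0.

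Some facts of the libraries bear on these values. Listed transcripts held about 7.82e+06 fragments in the control against 8.33e+06 in the si-v library, as read from the lowest values. These were 71.4% and 69.9% of the implied depths that scaled the fragment ratios. The mesenchymal genes of the line were high, with VIM at 344 and 373 FPKM, while ESR1 was listed at 0 in both and CDH1 stood at 0.0845 and 0.122. The epithelial gene EPCAM was at 11.3 and 12.8, and ERBB2 (HER2), the receptor whose overexpression triple-negative tumours lack, at 4.65 in the control against 17.4 in the si-v library. Its part in the results was not tested. No transcript of PTPRC, CD3E, HBB or PECAM1 was listed. Exons of 13 of the 47 genes overlap exons of another listed gene on the opposite strand, 8 of them over more than 10% of their bases. XRCC3 overlaps KLC1 over 47.7%, LIG3 overlaps RFFL over 43.8% and ERCC1 overlaps CD3EAP over 35.3%. As the strand setting is not given in the sources used here, reads of such pairs could not be told apart. ERCC3, LIG1, BARD1, FANCM, RAD51B, FANCE and BRCA1 have no such overlap with a listed gene.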

How the data were processed

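The deposited table gives for each transcript a value in 2 libraries, 1 per group. Its header names no unit; the authors' values are read here as FPKM. Per the submitters' processing notes, cutadapt, HISAT2 2.0.5 and StringTie were used on hg19; the sources used here do not give the annotation, strand setting or filters. Names came from GENCODE release 29 (GRCh38, another build than that of the table) by transcript ID with the version left off; 179 of 39605 IDs were not found. The 47 genes had 192 listed transcripts, all coding, 184 of the same version as in that release, of 314 coding ones annotated.

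FPKM was summed per gene, genes under 1 FPKM in both libraries were left out of the background, and log2 ratios used a pseudocount of 1 FPKM, which understates differences of low genes. A gene was counted as higher or lower at 1.5-fold; no test was made, since 1 library per group gives no spread. FPKM times length peaked at 91.3 (control) and 84.0 (si-v) among low values of genes with 1 listed transcript, taken as 1 fragment. Only 74.2% of 62 such values in the control and 69.8% of 53 in the si-v library were within 5% of it, so fragments are approximate, and whole counts were not recovered. Intervals are at 95% and cover counting error only. RefSeq promoters matched 43 of the 47 genes. The steps were tested on simulated data. Python 3.11.15, pandas 2.3.3 and SciPy 1.17.1 were used.

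Genes described in full were those past 1.5-fold and the highest, lowest and most abundant of each pathway. Of the genes whose sign turned with the transcript read, some are given with that reading and all are named below. Transcripts were picked after their values were seen. The members and lists were chosen with earlier results of these data known. Alternatives were other pseudocounts, filters, scalings, folds and ways of reading a gene. A few results are not reported here.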

Additional observations from a re-analysis of the deposited data

How the results depend on the processing

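With 1 library per group no replicate could be left out. No paired analysis was possible because each group has 1 library and no test was made. The median log2 ratio of the 47 genes ran from -0.10 (equal sums without genes of the mitochondrial genome) to 0.050 (GC content and length trend removed). The equal sums moved the median of all genes to -0.05. Of 461 recomputed gene values, 413 moved by no more than the distance from the gene's fragment ratio to its interval bound. That count includes settings that could not move a ratio, such as another filter, and the distance is wide for genes of few fragments. RAD51B, at 1.51, was counted as unmoved at 3.33 and at 0.49 with pseudocounts of 0.1 and 5 FPKM. The count is therefore no measure of stability. ERCC3 was lower at 1.5-fold in all alternatives. The gene counted as higher was not always RAD51B. On fragments per gene it was FANCE, where 9.23% of all genes were higher. Without transcripts under 1000 bases it was BRCA1 (0.69), where 9.43% of all genes were higher. With the trend removed, BRCA1 (0.61) was higher beside RAD51B. The number of repair genes higher, with the share of all genes under the same setting, was 3 (13.1%) with a pseudocount of 0.1 FPKM, 0 (4.10%) with one of 5 FPKM, 0 (9.93%) with a filter of 5 FPKM, 6 (14.2%) from the most abundant transcript, 2 (7.57%) with the trend removed and 4 (23.6%) at a difference of 25%. The number lower was 2 (3.54%) with a pseudocount of 5 FPKM, 2 (8.12%) with the trend removed, 2 (2.49%) at 2-fold and 10 (21.4%) at 25%. From the most abundant transcript 15 of the 47 genes had the opposite sign. They were FANCA, FANCM, FANCI, BRCA1, PALB2, MRE11, XRCC6, PRKDC, XRCC4, XRCC1, ATM, CHEK1, CHEK2, MSH6 and ERCC1. Of those past 1.5-fold this was FANCM, at 0.53. Of the pathway medians, that of FANCI and FANCD2 was 0.27 and 0.19 with pseudocounts of 0.1 and 5 FPKM, 0.19 with equal sums, 0.30 from the most abundant transcript, 0.20 on fragments, 0.34 with the trend removed and 0.22 without transcripts under 1000 bases, an alternative chosen after the data were seen. From the most abundant transcript the medians were 0.042 for end joining, 0.23 for single-strand break repair and 0.58 for the checkpoint kinases, against -0.03, -0.05 and -0.23. With the trend removed they were 0.46 for MRE11, RAD50 and NBN, 0.088 for end joining and -0.12 for the checkpoint kinases. Where a value moved, the cause was not tested. A changed leading transcript was counted in 9 genes when both shares had to move by 20 points, against 15, also chosen after the data were seen. About 40 fragments or fewer lie behind FANCF and RAD51B in the control, too few to show a 1.5-fold difference for FANCF.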
